A study of Mus musculus with 15 samples.

Results

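The 15 cerebellar RNA-seq libraries of the series fell into 2 sets by their level of Ttr, the transcript of transthyretin, and the sets differed in a whole programme of choroid plexus genes. The members were chosen by the plain level of Ttr, the count divided by the sum of all gene counts and scaled to CPM. Of the 15 libraries, 8 lay above 1000 CPM and are called Ttr-high here, and 7 lay below 100 CPM and are called Ttr-low. All 15 libraries of the series were thus members, and none lay between the limits. The labels name neither set: they are defined by a measured transcript, and no label says how much tissue beside the cerebellum each dissection held.

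Each library was made from cerebellar tissue of a mouse of the FVB strain, in 3 genotypes of 5 libraries. Wild-type mice carried no transgene, ATXN1[82Q] mice carried human ATXN1 with 82 glutamines, and ATXN1[82Q]V591A;S602D mice carried the same expanded protein with a pair of substitutions, called the substituted transgene here. Both transgenes are driven by Pcp2, a promoter active in Purkinje cells. Age and sex are not in the labels, nor is a statement that the 15 libraries stand for 15 animals, so each p-value covers no more than the spread among libraries. The Ttr-high set held wild type 1 and 5, ATXN1[82Q] 2, 4 and 5 and substituted transgene 2, 3 and 4. The Ttr-low set held the other 3 wild-type, 2 ATXN1[82Q] and 2 substituted libraries.

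The choroid plexus is a fold of epithelium over leaky capillaries that hangs into the brain ventricles, including the fourth ventricle between cerebellum and brainstem. Its epithelial cells secrete cerebrospinal fluid by moving ions and water from blood to ventricle, and they make transthyretin, which carries thyroid hormone and the retinol carrier in the fluid. Ependymal cells, which line the ventricle and bear motile cilia, border the plexus, and choroid plexus cells bear cilia of their own.

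Plain Ttr levels ran from 1075 CPM to 5041 CPM in the Ttr-high libraries, with a median of 3333 CPM. They ran from 4.16 CPM to 43.9 CPM in the Ttr-low libraries, with a median of 14.1 CPM. The lowest Ttr-high library, wild type 1, stood 24.5 times above the highest Ttr-low library, wild type 3, and these are the members on either side of the gap. Within the sets the highest library exceeded the lowest 4.69-fold (Ttr-high) and 10.6-fold (Ttr-low). These values chose the sets and are a description. Depth did not separate them: gene counts per library were 38468429 to 42818401 in the Ttr-high set and 36467948 to 40972780 in the Ttr-low set. Xist, the X-inactivation transcript, exceeded 1000 CPM in 3 Ttr-high and in 3 Ttr-low libraries.

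**Figure D1:**
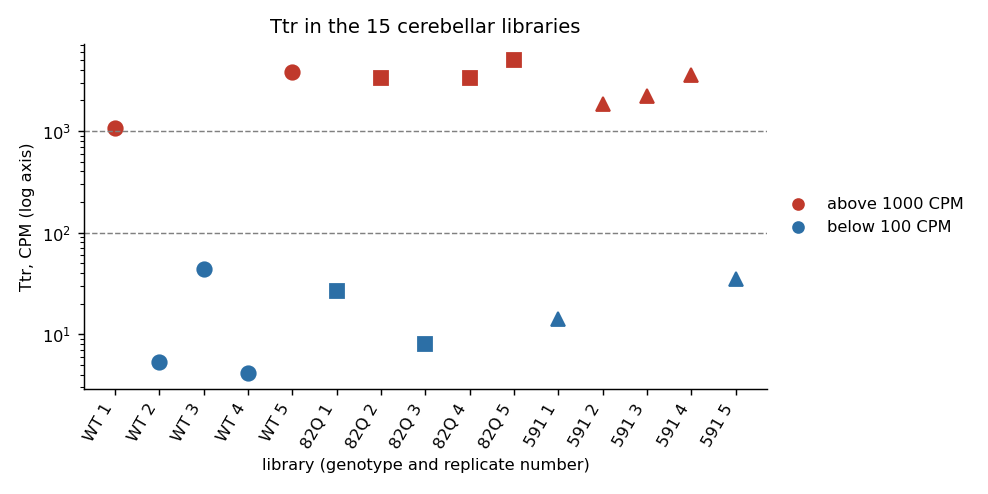
Plain Ttr level (CPM, log axis) in each of the 15 libraries, by genotype and replicate number (circles wild type, squares ATXN1[82Q], triangles the substituted transgene). Dashed lines mark 1000 and 100 CPM: 8 libraries lie above the upper line and 7 below the lower one.

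With Ttr, 46 symbols known from choroid plexus epithelium were listed. Of these 44 have a row in the files, Ecrg4 under its older symbol 1500015O10Rik, and 43 had enough counts to be fitted, the exception being Mcidas. The symbols Ecrg4 and 2900040C04Rik found no row. All 43 fitted genes were higher in the Ttr-high libraries, and so they were inside each of the 3 genotypes. In 33 of the 43, each Ttr-high library lay above each Ttr-low library, where 0.852% of all 15843 fitted genes did so. The log2 fold changes (Ttr-high minus Ttr-low, genotypes as blocks) ran from 0.36 for Atp4a to 7.16 for Ttr, with a median of 2.68 beside -0.0009 over all fitted genes. The list's median was 2.65 within wild type, 2.58 within ATXN1[82Q] and 2.72 within the substituted transgene. The genes of this list come from the tissue whose transcript set the split, so these are values to describe the label and no test is drawn from them. They match the label for the Ttr-high set, whereas the Ttr-low set is low in these genes rather than empty of them. Some of them had few counts there, such as 0 to 6 per library for Sostdc1 and 2 to 14 for Folr1. Fewer choroid plexus cells and less RNA per cell cannot be told apart in these bulk samples. The source of the low levels was not tested.

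Folr1 (ENSMUSG00000001827, chromosome 7, 101858331 to 101870788, GRCm38, minus strand) encodes the folate receptor by which the plexus passes folate into the fluid. Its level, scaled by library with the trimmed mean of M-values (TMM) as are all single-gene CPM that follow, was 8.31, 18.2 and 27.9 CPM (lowest, median and highest) in the Ttr-high libraries and 0.0537, 0.19 and 0.335 CPM in the Ttr-low libraries. The sets lay far apart, and the lowest values on both sides were wild-type libraries (1 and 2). Means were 17.8 ± 6.59 CPM (SD, n = 8) and 0.197 ± 0.0998 CPM (SD, n = 7), a ratio of means of 90.2, and the fitted fold with genotypes as blocks was 85.4. Kl (ENSMUSG00000058488, chromosome 5, 150952607 to 150993817, GRCm38, plus strand) encodes klotho, the co-receptor of the hormone FGF23. It stood at 30.7, 73.5 and 110 CPM against 1.08, 2.33 and 3.71 CPM. Sostdc1, a secreted inhibitor of BMP and Wnt signalling, reached 2.69, 6.61 and 9.97 CPM, and in the Ttr-low libraries 0, 0.0742 and 0.159 CPM, with no count in wild type 2, where 3 counts would give up to 0.0823 CPM. The prolactin receptor Prlr was at 5.53, 12.1 and 22.2 CPM against 0.202, 0.42 and 0.558 CPM, highest in substituted transgene 4 rather than in the library with the most Ttr.

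Ion and water transport separated the sets as clearly for some members and not for others. Kcne2 (chromosome 16, 92292389 to 92298129, plus strand), a potassium channel subunit of the apical membrane, was at 5.85, 13.8 and 18.6 CPM in the Ttr-high libraries and 0.148, 0.186 and 0.379 CPM in the Ttr-low ones. The water channel Aqp1 was at 3.59, 11.2 and 17.9 CPM against 0.126, 0.247 and 0.433 CPM. Neither gene overlapped between the sets, with Aqp1 lowest among the Ttr-high in wild type 1. The chloride channel gene Clic6 was at 19.7, 36.0 and 52.9 CPM against 1.6, 3.38 and 6.04 CPM. For Clic6 the log2 fold change was 2.71 within wild type, 4.52 within ATXN1[82Q] and 3.43 within the substituted transgene. No test of that variation is read, as Clic6 is on the choroid plexus list, and each genotype had only 2 or 3 libraries in each set. The calcium-permeable channel Trpv4 was at 3.99, 7.59 and 10.1 CPM against 0.752, 1.21 and 1.62 CPM, and Kcnj13, an inward rectifier, at 10.2, 23.7 and 25.9 CPM against 0.932, 2.63 and 3.42 CPM. Kcnj13 lies within another gene: 49.1% of its exonic bases overlap Gigyf2, so its counts are uncertain.

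Secreted and structural products followed. Enpp2 (chromosome 15, 54838901 to 54952892, minus strand) encodes autotaxin, a secreted phospholipase that oligodendrocytes also make. It was also present in the Ttr-low set: 860, 1724 and 2421 CPM in the Ttr-high libraries and 181, 253 and 276 CPM in the Ttr-low ones. Its ratio of means was 6.64 and its fitted fold 6.43. The coagulation factor F5 was at 14.5, 31.1 and 54.3 CPM against 1.13, 1.33 and 1.53 CPM. The tight junction protein Cldn2 was at 5.10, 10.0 and 17.5 CPM against 0.453, 1.07 and 1.32 CPM. The keratin Krt18, typical of simple epithelia, was at 2.08, 4.26 and 6.43 CPM against 0.0806, 0.13 and 0.451 CPM. Otx2, a homeobox factor that choroid plexus cells express, overlapped between the sets: 15.9, 21.1 and 25.2 CPM against 9.17, 12 and 18 CPM. Igf2, a growth factor that meningeal cells also make, overlapped widely at 156, 275 and 438 CPM against 92.3, 170 and 274 CPM, and the 2 highest Ttr-low values of Igf2 were both ATXN1[82Q] libraries, at 233 and 274 CPM.

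Over all 15 libraries, after each genotype's mean was removed, the 10 genes most like Ttr by Pearson's r of log2 CPM were Kcne2 (0.986), Kl (0.985), Folr1 (0.983), Cldn2 (0.983), Prlr (0.98), F5 (0.979), the serotonin receptor Htr2c (0.973), Enpp2 (0.972), 5930403L14Rik (0.968) and Kcnj13 (0.965). These points share libraries and fall into 2 clusters, so the values rank the genes and carry no p. Inside the 8 Ttr-high libraries alone, 6 relations with Ttr were computed on log2 CPM. For the 4 genes of the choroid plexus list they are a description, with no test. Folr1 gave Pearson's r = 0.97 and Spearman's rho = 0.976, Kcne2 r = 0.987 and rho = 0.952, Enpp2 r = 0.978 and rho = 0.976, and Igf2 r = 0.908 and rho = 0.762. Over 6 libraries, without wild type 1 and substituted transgene 2, the 2 farthest from the median of Ttr, r was 0.916, 0.97, 0.972 and 0.833 for these 4 genes.

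The other 2 genes lie outside that list and were tested by 2-sided exact permutation, with p-values adjusted over the 6 relations. The adjustment thus includes the choroid plexus genes above, for which no test is drawn. Libraries were permuted across genotypes with no block, so differences between genotypes enter each r and p. Foxj1, the master transcription factor of motile cilia, gave r = 0.892 (exact permutation p = 0.00704, adjusted 0.00845) with rho = 0.643 (p = 0.0962, adjusted 0.115), so the relation passed by r and not by rank. Over the 6 libraries r was 0.692 for Foxj1 (exact permutation p = 0.189, adjusted 0.227), with a slope of 0.936 on the log2 scales beside 0.862 over all 8. Slc6a5, a glycine transporter of brainstem and deep cerebellar neurons, gave r = 0.453 (exact permutation p = 0.249) and rho = 0.381 (p = 0.36), and r = 0.382 (exact permutation p = 0.472) over the 6 libraries.

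**Figure D2:**
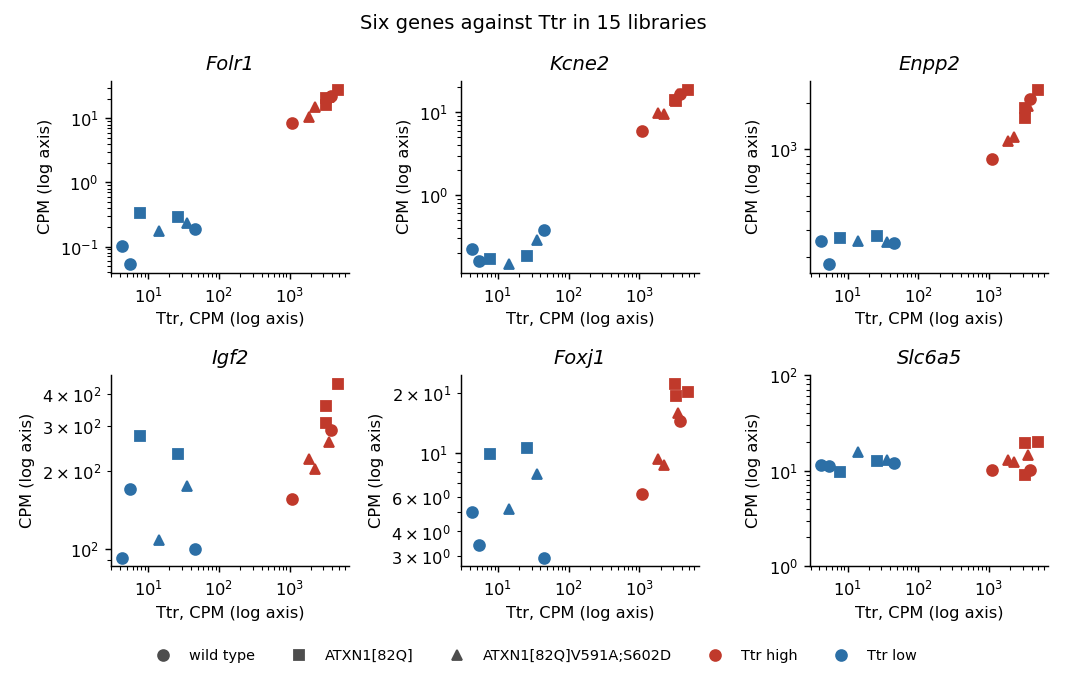
Level of 6 genes against Ttr (TMM-scaled CPM, both axes logarithmic, 1 point a library; red Ttr-high, blue Ttr-low; circles wild type, squares ATXN1[82Q], triangles the substituted transgene). Folr1, Kcne2 and Enpp2 leave a gap between the sets and rise with Ttr among the red points, Igf2 and Foxj1 overlap, and Slc6a5 stays between 9.06 and 19.9 CPM throughout.

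All fitted genes, those of the choroid plexus list included, were tested together for the split with the edgeR quasi-likelihood F-test and genotype as a block, and called at a Benjamini-Hochberg adjusted p under 0.05. The split was read from Ttr and not assigned, so the test measures an association with Ttr over these libraries. Of 15843 genes 809 were called (5.11%), 562 higher in the Ttr-high libraries (3.55%) and 247 lower (1.56%). Outside the choroid plexus list, for which no test is read, 521 of 15800 were higher and 247 lower (4.86% in all). Of the higher calls 197 exceeded 2-fold, 32 of them in the choroid plexus list, and 78 exceeded 4-fold, 25 of them in that list. None of the lower calls exceeded 1.5-fold. A further test of whether the difference varied between genotypes called 0 genes by edgeR, with 565 at an unadjusted p under 0.05, and 0 by DESeq2, with 538. Of the 562 higher calls 560 were higher within each of the 3 genotypes, as 3325 of all fitted genes were. All 247 lower calls were lower within each genotype, as 3382 of all fitted genes were. A call over the joint fit had to be similar in the genotypes that make it up, so these counts describe the calls and do not replicate them. The number of calls depended on single libraries: it ran from 471 without wild type 5 to 1370 without ATXN1[82Q] 2, and also fell to 522, 526 and 520 without substituted transgene 1, substituted transgene 4 and ATXN1[82Q] 3.

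**Figure D3:**
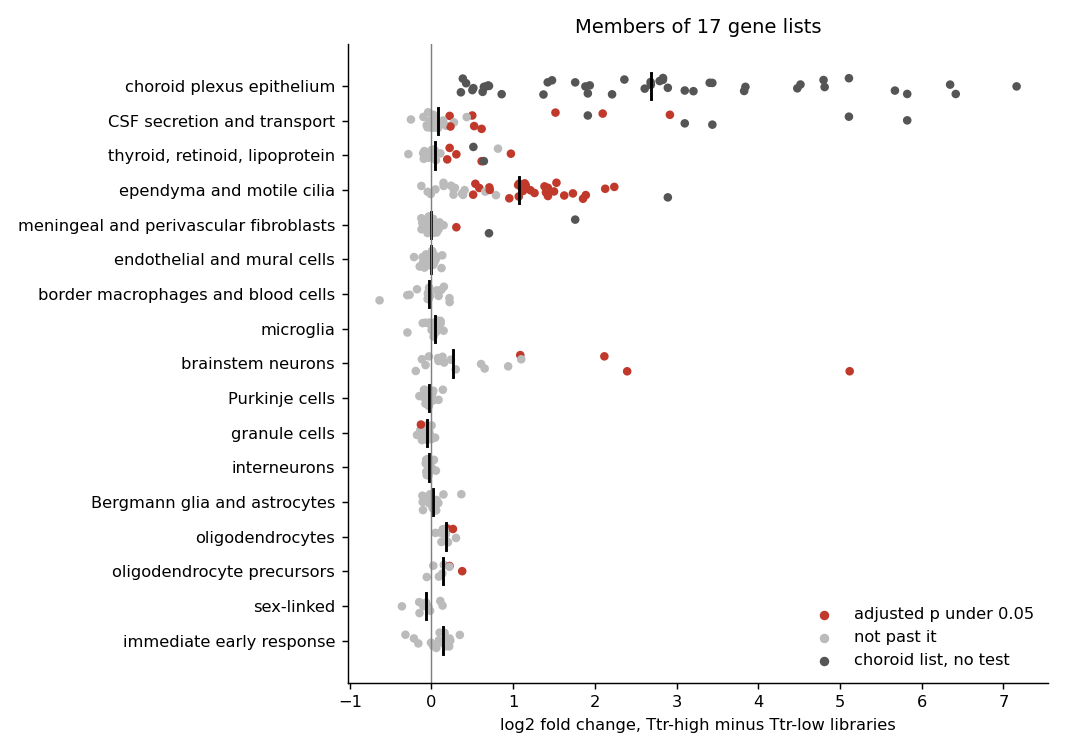
Log2 fold change (Ttr-high minus Ttr-low libraries) of the fitted members of 17 gene lists, 1 point a gene, with the list's median as a black bar. Red points passed an adjusted p of 0.05, light grey ones did not, and dark points are members of the choroid plexus list, for which no test is drawn. Most of the motile cilia list lies to the right of 0, with a median of 1.07, and the Purkinje, granule cell, interneuron, microglial and vascular lists lie around 0.

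Genes of motile cilia rose with the choroid plexus genes. Of the 44 fitted members outside the choroid plexus list 29 were higher and 0 lower, where 3.55% of all genes were higher, and their median log2 fold change was 1.06. Leaving out each library in turn gave 26 to 30 of 44. Their groups overlapped more than those of the choroid plexus genes, and only 3 of the 44 had each Ttr-high library above each Ttr-low one. Foxj1 (chromosome 11, 116330704 to 116335399, minus strand) was at 6.20, 15.1 and 22.3 CPM in the Ttr-high libraries and 2.95, 5.22 and 10.6 CPM in the Ttr-low ones, a log2 fold change of 1.07 ± 0.181 (SE; edgeR adjusted p = 0.00157). The 2 highest Ttr-low values of Foxj1, 10.6 and 9.87 CPM, both came from ATXN1[82Q] libraries. Gmnc, which starts the multiciliated cell programme and is on both lists, was at 1.05, 2.11 and 3.45 CPM against 0.0806, 0.272 and 0.526 CPM.

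Parts of the axoneme, the microtubule core of the cilium, rose. The outer arm dynein heavy chain Dnah9 rose by 1.53 ± 0.180 on the log2 scale (SE; edgeR adjusted p = 3.55e-05), from 0.677, 1.08 and 2.84 CPM in the Ttr-low to 2.44, 4.46 and 7.37 CPM in the Ttr-high libraries. The radial spoke protein Rsph1 rose by 1.40 ± 0.173 (adjusted p = 6.60e-05) and the central pair protein Spag16 by 1.43 ± 0.177 (adjusted p = 6.97e-05). Cfap52 at 2.24 and Pifo at 2.13 were the largest of the list outside the choroid plexus genes, and Tekt1, a tektin of the microtubule doublet, stood at 1.14. These 3 were picked with their values in view. Not all cilia genes moved: Dnah5, another outer arm heavy chain, was at 2.03, 3.20 and 4.93 CPM against 1.68, 2.34 and 3.85 CPM (log2 fold change 0.24, edgeR adjusted p = 0.305).

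As motile cilia genes moved together, their promoters were searched. RFX factors, known regulators of cilia genes, bind the X-box, whose core is a repeat of GTTGCC. In the 250 bases before the start site (RefSeq, GRCm38.p6), GTTGCC on either strand was found in 16 of 42 motile cilia genes with an entry (38.1%), in 6 of 38 choroid plexus genes (15.8%) and in 11.8% of all 27025 genes. This was 1 of 8 motif forms searched, chosen after the values were seen. The homeobox motif TAATCC, read by OTX factors, was in 4 of 38 choroid plexus genes (10.5%) and in 7.21% of all, and the forkhead motif GTAAACA in 3 of 42 cilia genes (7.14%) and in 3.54% of all. The Spag16 promoter, chr1:69826720-69826969 on the plus strand, holds GTTGCC on both strands. Pifo has 2 listed start sites, and the first with a match was picked. That promoter, chr3:106001498-106001747 on the minus strand, holds GTTGCC once near the start site. They are shown 5′ to 3′ with the matches in capitals.
Spag16: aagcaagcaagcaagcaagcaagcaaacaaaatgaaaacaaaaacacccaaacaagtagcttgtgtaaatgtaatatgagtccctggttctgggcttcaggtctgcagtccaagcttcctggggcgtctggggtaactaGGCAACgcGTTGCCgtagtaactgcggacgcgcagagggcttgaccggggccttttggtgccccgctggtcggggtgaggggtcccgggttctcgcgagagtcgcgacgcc
Pifo: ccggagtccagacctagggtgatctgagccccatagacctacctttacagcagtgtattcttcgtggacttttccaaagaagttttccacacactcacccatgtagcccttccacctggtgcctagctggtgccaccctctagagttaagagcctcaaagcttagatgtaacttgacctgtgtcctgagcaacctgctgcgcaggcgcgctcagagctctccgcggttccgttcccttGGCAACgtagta
A match is a run of letters and was not tested for binding.

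The cilia genes also differed between genotypes in a way the split did not follow. The mean log2 CPM of the list, as a difference from the wild-type mean, was -0.649, -0.561 and -0.258 in the 3 Ttr-low wild-type libraries and 0.706 and 0.641 in the 2 Ttr-low ATXN1[82Q] libraries, although Ttr was below 100 CPM in all 5. The 2 Ttr-low substituted libraries stood between, at -0.192 and 0.173. In the Ttr-high libraries the values were 0.429 and 1.04 for wild type, 1.31, 1.64 and 1.39 for ATXN1[82Q] and 0.535, 0.704 and 1.27 for the substituted transgene. In each set the ATXN1[82Q] libraries were thus the highest for the cilia list. Among the Ttr-low libraries the choroid plexus list's mean was also highest in ATXN1[82Q], at -0.577 and -0.601. It was -1.11, -0.858 and -1.18 in wild type and -1.09 and -0.71 in the substituted transgene. Whether the cilia and choroid plexus differences are linked was not tested.

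With the split in the model, 35 of 45 cilia genes were higher in ATXN1[82Q] than in wild type and 0 lower, with a median log2 fold change of 0.933, where 17.1% of all genes were higher. Fitted on the Ttr-low libraries alone, 30 of 45 were higher and 0 lower (median 1.09), where 9.85% of all genes were higher. Fitted on the Ttr-high libraries alone, 5 of 45 were higher (median 0.772), where 4.70% of all genes were. Leaving out each library in turn gave 29 to 37 of 45. Between the transgenes, 31 of 45 were higher in ATXN1[82Q] (median 0.675), where 16.3% of all genes were higher. That count ran from 18 without substituted transgene 2 to 33 without wild type 5. With the brainstem mean, described further on, as a covariate, 22 of 45 were higher than in wild type and 10 of 45 than in the substituted transgene, where 9.23% and 6.37% of all genes were higher. Between the substituted transgene and wild type 0 of 45 were called in either direction by edgeR (median 0.202). Over all genes 0.297% were higher and 1.37% lower, so the 0 is near that share. DESeq2 also called 0 of 45, and 503 of 15842 over all genes. The comparisons share libraries and are given side by side.

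**Figure D4:**
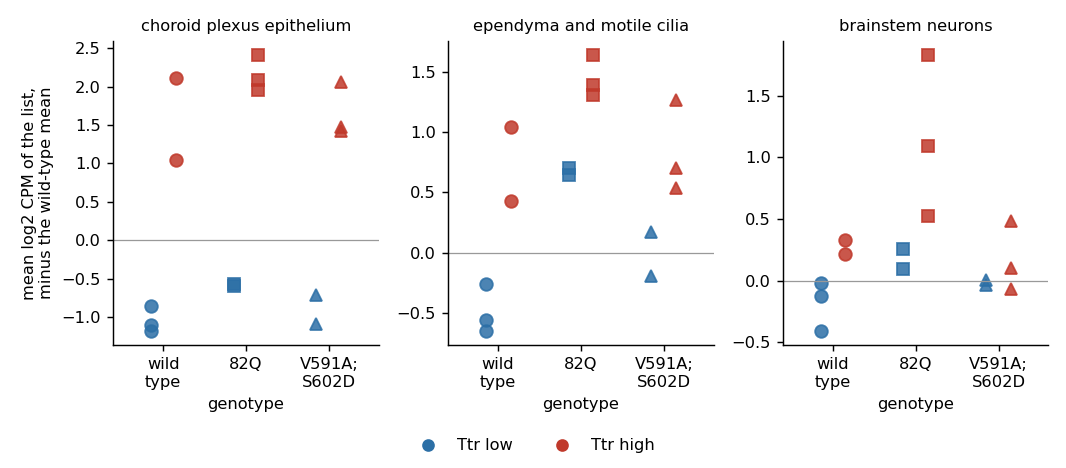
Mean log2 CPM of the fitted genes of 3 lists in each library, as a difference from the mean of the 5 wild-type libraries (blue Ttr-low, red Ttr-high). The choroid plexus list leaves a gap between blue and red in each genotype. The cilia list is higher in the blue ATXN1[82Q] libraries (0.706 and 0.641) than in the blue wild-type ones (-0.649 to -0.258). So is the choroid plexus list (-0.577 and -0.601 against -1.18 to -0.858). The brainstem list is high in 2 red ATXN1[82Q] libraries.

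Among genes for secretion of the fluid and transport of solutes, 8 of 33 outside the choroid plexus list were higher in the Ttr-high libraries and 0 lower, where 3.55% of all genes were higher. Slc4a5, a sodium bicarbonate transporter of the apical membrane, was at 11.2, 25.1 and 35.6 CPM against 4.03, 5.09 and 6.83 CPM, with no overlap (log2 fold change 2.10 ± 0.178 SE, edgeR adjusted p = 8.17e-07). Slc16a8, a lactate transporter, was at 1.16, 2.15 and 3.23 CPM against 0.159, 0.252 and 0.396 CPM (log2 fold change 2.92, adjusted p = 2.87e-06), and the zinc transporter Slc39a4 rose by 1.52 (adjusted p = 0.0230). Slc39a4 lost its call without substituted transgene 1, ATXN1[82Q] 1 or wild type 5 (edgeR adjusted p = 0.0598, 0.0633 and 0.0793). The basolateral anion exchanger Slc4a2, expressed widely in brain, rose by less, from 47.3, 53.4 and 55.0 CPM to 60.4, 71.1 and 88.3 CPM (log2 fold change 0.50, adjusted p = 8.07e-05). Slc12a2, the sodium potassium chloride cotransporter, is central to secretion but also present in neurons and glia, and did not pass. It was at 188, 199 and 216 CPM against 172, 190 and 206 CPM (log2 fold change 0.09, adjusted p = 0.190).

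Of the genes that handle thyroid hormone, retinoids and lipoproteins, 5 of 19 outside the choroid plexus list were higher and 0 lower, where 3.55% of all genes were higher. The count was 1 of 19 with the brainstem mean as a covariate, where 1.09% of all genes were. The retinol uptake receptor Stra6 was at 6.19, 6.96 and 8.73 CPM against 1.46, 4.08 and 5.76 CPM, with no overlap (log2 fold change 0.97 ± 0.188 SE, edgeR adjusted p = 0.00480). Clu, an abundant lipoprotein of astrocytes and choroid plexus, rose by 0.19 (adjusted p = 0.00149) with wide overlap. The retinol dehydrogenase Rdh5 is on the choroid plexus list too, at 11.4 to 18.8 CPM against 8.68 to 14.2 CPM, and 25.6% of its exonic bases overlap Bloc1s1.

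Genes of other cells of the plexus and its surroundings seldom passed the test. Markers of the stroma were measured with lists of fibroblasts of meninges and vessels, of endothelial and mural cells, and of border macrophages and blood cells. Of 29 fibroblast genes outside the choroid plexus list 1 was higher, Bmp6, a bone morphogenetic protein, at 14.7, 19.6 and 27.7 CPM against 11.4, 14.4 and 21.7 CPM (log2 fold change 0.30, edgeR adjusted p = 0.0130). That share is near the 3.55% of all genes called higher, and the list's median was -0.0113. Igfbp2, which meningeal fibroblasts and choroid epithelium share, was at 46.4 to 149 CPM against 14.4 to 46.2 CPM. None of 19 endothelial and mural genes, 16 border macrophage and blood genes or 17 microglial genes was called, where 5.11% of all genes were. Each 0 is thus near the share of all genes, and the medians were -0.0099, -0.0326 and 0.0429. Plvap, a protein of leaky capillaries such as those of the plexus, was at 30.1, 34.2 and 37.0 CPM against 27.8, 32.4 and 35.0 CPM (log2 fold change 0.13, adjusted p = 0.103).

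Genes of cerebellar neurons, Bergmann glia and astrocytes also seldom passed. None of 24 Purkinje cell, 13 interneuron, or 21 Bergmann glia and astrocyte genes was called, where 5.11% of all genes were. Each 0 is thus near the share of all genes, and the medians were -0.0334, -0.0361 and 0.0162. Calb1, the calcium buffer of Purkinje cells, had a median of 768 CPM in the Ttr-high libraries and 785 CPM in the Ttr-low ones (log2 fold change -0.06, edgeR adjusted p = 0.527), and Gfap, a filament of astrocytes, at 144 to 418 CPM against 107 to 488 CPM (adjusted p = 0.780). Of 17 granule cell genes 1 fell, Reln, by 0.13 on the log2 scale (adjusted p = 0.0328), where 1.56% of all genes were lower. It lost its call in 8 of 15 fits with 1 library left out (highest edgeR adjusted p = 0.0936, without wild type 5). Of 14 oligodendrocyte genes 2 rose, where 3.55% of all genes were higher, Mog by 0.26 (adjusted p = 0.0108) and Mobp by 0.19 (adjusted p = 0.0432), and the list's median was 0.173. Leaving out each library gave 1 to 5 of 14, the most without wild type 4, and Mobp lost its call in 9 of 15 such fits (highest edgeR adjusted p = 0.119, without wild type 5). With the brainstem mean as a covariate 0 of 14 were called (edgeR, median 0.073), and 0 of 14 without the 3 libraries with over 0.5 CPM of Slc6a2, described next. Of 8 precursor genes 2 rose, where 3.55% of all genes were higher, Olig1 by 0.22 (adjusted p = 0.0251) and C1ql1 by 0.38 (adjusted p = 0.0463). Without ATXN1[82Q] 3, wild type 1 or wild type 3 none of the 8 was called by edgeR, with adjusted p for Olig1 of 0.0586, 0.0659 and 0.0523. C1ql1 lost its call in 12 of 15 such fits (highest edgeR adjusted p = 0.123, without ATXN1[82Q] 1). Neither with the brainstem mean as a covariate nor with the replicate block was any of the 8 called.

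Transcripts of brainstem neurons were high in some Ttr-high libraries. Only 18 of 40 listed genes had enough counts to be fitted, and those that did could pass through the libraries where they are high, so the count over them is no support. Of the 18, 4 were called higher and 0 lower, where 3.55% of all genes were higher and 1.56% lower. The 4 were Slc6a2, the noradrenaline transporter, Dbh, the enzyme that makes noradrenaline, and the neuronal proteins Prph and Sncg. With 1 library left out Dbh lost its call in 11 of 15 fits and Prph in 6 (highest edgeR adjusted p = 0.13 and 0.125, both without ATXN1[82Q] 3). Slc6a2 stood at 6.86 CPM in ATXN1[82Q] 5, 1.34 in ATXN1[82Q] 2 and 0.829 in substituted transgene 4, and at 0.0731 to 0.266 CPM in the other 5 Ttr-high libraries. The Ttr-low libraries held 0 to 0.0717 CPM. Hoxb5 reached 0.293 CPM in ATXN1[82Q] 5 and 0.147 in ATXN1[82Q] 2, against at most 0.0542 CPM in the Ttr-low libraries. The mean of the brainstem list was highest in ATXN1[82Q] 5 (1.83) and ATXN1[82Q] 2 (1.09), whereas Slc6a5 overlapped between the sets (9.06 to 19.9 CPM against 9.77 to 15.6 CPM).

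Without the 2 libraries of highest brainstem mean, 31 of 44 cilia genes outside the choroid plexus list were called higher, and without the 3 with over 0.5 CPM of Slc6a2, 28 of 44, where 3.30% and 2.47% of all genes were higher. With the brainstem mean as a covariate 19 of 44 were higher (median 0.981), where 1.09% of all genes were. The choroid plexus list's median was 2.64 and 2.55 without the 2 and the 3 libraries, close to 2.68 with all libraries. Of the brainstem list, 2 of 18 and 1 of 15 were then called. The lower calls over all genes shifted: 484 of 1012 calls were lower without the 2 libraries and 290 of 684 without the 3, beside 247 of 809. With the brainstem mean as a covariate, 172 genes were higher and 6 lower. Brainstem transcripts moved with the sets, and their part in the small changes was not tested.

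The 247 genes lower in the Ttr-high libraries fell by small amounts, with log2 fold changes from -0.414 to -0.0746 and a median of -0.134. The largest falls were Rabif (-0.41, edgeR adjusted p = 0.0280), Kcnj6 (-0.33, adjusted p = 0.00477), Tenm1 (-0.30), Ago3 (-0.29), Mre11a (-0.29), Rab30 (-0.25), Nbeal1 (-0.25) and Zfp169 (-0.24). Several of these calls ended with 1 library left out: Ago3 in 11 of 15 fits, Nbeal1 in 10, Tenm1 in 9, Rabif in 5 and Zfp169 in 1, without substituted transgene 1 (edgeR adjusted p = 0.0519). The highest adjusted p was 0.123 for Ago3, 0.0912 for Tenm1 and 0.0825 for Rabif, each without wild type 5, and 0.0876 for Nbeal1 without ATXN1[82Q] 1. Kcnj6, Mre11a and Rab30 stayed called in all 15. Kcnj6, a potassium channel subunit of granule cells, was at 9.45, 12.3 and 16.3 CPM in the Ttr-high libraries and 11.4, 15.8 and 20.1 CPM in the Ttr-low ones, so the sets overlapped. Smg1, a kinase of nonsense-mediated decay, was at 554, 643 and 675 CPM against 672, 712 and 798 CPM, with an overlap at wild type 4 alone (log2 fold change -0.22, adjusted p = 0.00138). Across all genes 15 had each Ttr-high library below each Ttr-low library (0.0947%).

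The genes that fell were long and highly expressed. Their median log2 CPM was 6.83, against 4.56 for all fitted genes and 2.38 for the genes that were higher. Their median exonic length was 10219 bases, against 4310 bases for all fitted genes and 3392 bases for the 562 that were higher. In 5 classes of equal size by exonic length, from shortest to longest, 0, 4, 14, 47 and 180 genes were called lower and 194, 103, 107, 85 and 70 higher. The median log2 fold change over all genes of a class went from 0.0386 in the shortest to -0.0448 in the longest. Per library, the mean of long genes minus that of short genes lay between -0.0947 and 0.041 (log2) in the Ttr-high set and between 0.0213 and 0.0656 in the Ttr-low set. The sets overlapped there in 1 library alone, ATXN1[82Q] 2. Reads counted outside any gene were 16.8% to 17.9% in the Ttr-high and 17.5% to 18.2% in the Ttr-low libraries. The parts of length and of expression level in the falls were not tested beyond these values.

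**Figure D5:**
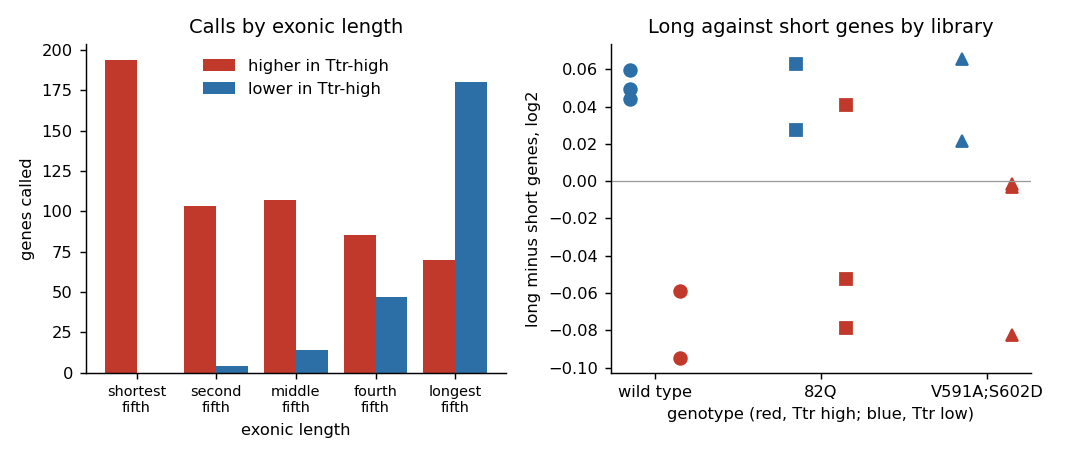
Left, number of genes called higher (red) or lower (blue) in the Ttr-high libraries in 5 classes of exonic length: lower calls go from 0 in the shortest class to 180 in the longest. Right, mean log2 difference of long minus short genes in each library, by genotype (red Ttr-high, blue Ttr-low): red points lie between -0.0947 and 0.041 and blue points between 0.0213 and 0.0656.

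Carrying the split in the model changed the genotype comparisons unevenly. For ATXN1[82Q] against wild type 4993 genes were called without it (31.5%) and 5071 with it (32.0%). Of these 4824 were shared, 247 were gained and 169 lost. None of the lost genes was itself called for the split, where 5.11% of all genes were. For the substituted transgene against wild type the counts were 223 (1.41%) and 264 (1.67%), with 44 gained and 3 lost. For ATXN1[82Q] against the substituted transgene they were 4454 (28.1%) and 5228 (33.0%), with 774 gained and 0 lost. No gene called in both fits changed its direction. In the first comparison 32 genes moved by over 0.5 on the log2 scale, 30 of them called for the split.

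Of the genes gained, 106 of 247, 11 of 44 and 246 of 774 in the 3 comparisons were called for the split, where 5.11% of all genes were. Both kinds of call come from the same fit. These overlaps, and those of the lost and moved genes, therefore describe the calls and are no support. In ATXN1[82Q] against wild type Trpv4, on the choroid plexus list, went from a log2 fold change of 1.16 (edgeR adjusted p = 0.238) to 0.69 (adjusted p = 0.00703). Calml4, a calmodulin-like protein of brush borders on the same list, went from 1.09 (adjusted p = 0.305) to 0.79 (adjusted p = 0.0269). For Trpv4 and Calml4 the estimate fell while the test passed. Ttr also differed among libraries inside the sets, as given further on. Genotype and the amount of plexus therefore cannot be told apart for these genes. Myo7a, an unconventional myosin, went from 1.17 (adjusted p = 0.0533) to 0.89 (adjusted p = 0.000644). Between the transgenes Drc7, a part of the ciliary dynein regulatory complex, went from 0.71 (adjusted p = 0.538) to 0.82 (adjusted p = 0.0360). Against wild type the substituted transgene gained Th, tyrosine hydroxylase, at -1.24 (adjusted p = 0.0175, before -1.13 and 0.110), and Hdc, the histamine-making enzyme, at -0.61 (adjusted p = 0.0125, before -0.52 and 0.217). Baiap3 was lost, with an adjusted p of 0.0415 without and 0.0607 with the split.

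Some choroid plexus genes were also called between genotypes beside the split. With the split in the model 14 of its 43 genes were higher in ATXN1[82Q] than in wild type (median 0.54) and 0 lower, against 3 higher without it, where 17.1% and 16.6% of all genes were higher. The count of 14 depended on single libraries: it was 8 without wild type 1 and 31 without wild type 5, with medians from 0.258 to 0.953 over the 15 fits that leave 1 out. Between the transgenes 8 were higher in ATXN1[82Q] with the split and 1 without it, where 16.3% and 13.5% of all genes were higher. The 8 of 43 are near the share of all genes, and ran from 4 without substituted transgene 3 to 18 without substituted transgene 4. For the substituted transgene against wild type 0 of 43 were called by edgeR with or without the split, where 0.297% and 0.208% of all genes were higher, and DESeq2 called 1. Ttr within the Ttr-high libraries (TMM-scaled) was 1090 and 3792 CPM for the 2 wild-type libraries. It was 3248, 3236 and 4868 CPM for the ATXN1[82Q] libraries and 1853, 2253 and 3544 CPM for the substituted ones, so the amount also differed inside the set. With log2 Ttr in place of the split, 10 of 43 were higher in ATXN1[82Q] than in wild type (median 0.246), where 16.2% of all genes were higher. With the split and the brainstem mean, 2 of 43 were, where 9.23% of all genes were higher. Purkinje cell genes, as a comparison, gave the same counts in both fits. In ATXN1[82Q] 23 of 24 were lower than in wild type, where 14.9% of all genes were lower in either fit. In the substituted transgene 14 of 24 were lower than in wild type, where 1.20% of all genes were lower without the split and 1.37% with it. Between the transgenes 23 of 24 were lower in ATXN1[82Q], where 14.6% of all genes were lower without the split and 16.7% with it.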

How the data were processed

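Poly(A)- and random-primed libraries from 10 ng of total RNA, with inserts of 400 bp, were sequenced on a HiSeq 2500, per the labels' protocols. Per the submitters' processing notes, STAR 2.5.3a, HTSeq, DESeq2 and the mm10 build were used, and the deposited files hold raw whole-number counts per gene symbol. The sources used here do not give the strand setting, counting mode or annotation release, and the kit does not mark strand, so overlapping genes may share counts. Rows that name no gene were left out of library sizes. They took 16.8% to 18.2% of reads for those outside genes.

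Groups came from the titles, and the Ttr sets from plain CPM with limits of 1000 and 100. The members, gene lists, tests and alternatives were chosen with earlier results of these data known. No 2 libraries of a genotype were duplicates (30 pairs, chi-square per degree of freedom 5.7 to 40.6). Genes passing filterByExpr by genotype (minimum count 10, 15843 of 24421) were fitted with edgeR 4.0.16 in R 4.3.3 (quasi-likelihood F-test, TMM factors 0.968 to 1.04, common biological coefficient of variation 0.0803) as genotype plus set, and with their interaction. Calls used a Benjamini-Hochberg adjusted p under 0.05. Log2 CPM used a prior count of 2. The standard error (SE) of a log2 fold change was its absolute value divided by the square root of the F statistic. Within the Ttr-high set, relations of genes outside the choroid plexus list were tested by exact permutation of pairings across genotypes, with no genotype block.

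Named genes were among protein-coding genes that were called and had a mean log2 CPM of 1 or more, the 12 that rose and the 8 that fell most, up to 4 called members per list, up to 4 gained and 4 lost per genotype comparison, the 10 genes most like Ttr, and a fixed set of markers. Of the genes the rule takes, not all are printed. Genes named outside it are Slc16a8, Slc4a2, Slc39a4, Slc12a2, Pifo, Tekt1, Cfap52, Dnah5, Plvap, Krt18, Smg1, Spag6l, Ins2, Col1a1 and Atp4a. Some genes that the rule or the lists take are not reported here. Positions and exonic lengths came from GENCODE M21 (GRCm38), where 23384 of 24421 symbols matched, and 651 more matched through synonyms. Promoters came from RefSeq (GRCm38.p6).

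On simulated data for the split (15753 genes), 82 of 99 genes changed 1.5-fold and 84 of 99 changed 2-fold were called, with 5 false calls. The simulated counts were drawn from a fit without the split. Smaller changes were not simulated, and they make up 273 of the 562 higher calls and all 247 lower calls. Alternatives were RLE size factors, DESeq2 1.42.0, dropping the count filter, a replicate block, other covariates, each set alone and each library left out. Fits without the libraries rich in brainstem transcripts were chosen after seeing the data. The reads were amplified and carry no molecular identifiers, so floors cover counting error only.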

Additional observations from a re-analysis of the deposited data

Results flagged for a closer look

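In 6 of 172 groups of libraries examined, a single library stood apart from the rest of its set, where chance alone flags about 1 in 20 groups. Cldn2 was at 0.453 CPM in wild type 4, against 0.989 to 1.32 CPM in the other 6 Ttr-low libraries. Enpp2 was at 181 CPM in wild type 2, against 245 to 276 CPM in the other 6 Ttr-low libraries. Trpv4 was at 3.99 CPM in wild type 1, the Ttr-high library with the least Ttr, against 6.75 to 10.1 CPM in the other 7. Olig1 was at 76.7 CPM in ATXN1[82Q] 5, the library with the most Ttr and the highest brainstem mean, against 52.5 to 60.3 CPM in the other 7. Spag6l, a protein of the ciliary central apparatus, was at 0.504 CPM in ATXN1[82Q] 1, against 0.831 to 1.03 CPM in the other 6 Ttr-low libraries. Ins2, an insulin gene, was at 0.0271 CPM in wild type 3, a single count, and at 0 in the other 6 Ttr-low libraries.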

How the results depend on the processing

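Of 1822 refits of 73 named genes, 1613 counted as the same, 164 lost the call and 24 changed sign. Another 21, all of choroid plexus genes with no test drawn, moved by more than the standard error. The same meant an unchanged direction and call, or no adjusted p to compare. For choroid plexus list members it meant the same direction and a move under the standard error, or with log2 Ttr the direction alone. Genes called for the split numbered 809 in the reported fit, 819 with RLE size factors, 815 without a count filter, 793 with Xist as a covariate and 927 with log2 Ttr in place of the sets. They numbered 1224 with DESeq2 (730 higher, 494 lower), 178 with the brainstem mean as a covariate, 250 without the genotype block (238 higher, 12 lower), and 471 to 1370 with each library left out. With the replicate number as a block 431 were called (361 higher, 70 lower); same-numbered libraries correlated above 0.1 in 4 of 15 pairs (median -0.109), and 3 of 15 libraries correlated best with their own number, so the numbers do not pair the libraries.

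Calls for ATXN1[82Q] against wild type (5071) were 2947 with the brainstem mean, 3234 in Ttr-low and 1624 in Ttr-high libraries alone, and 4283 to 5274 with each library left out. For the substituted transgene against wild type (264) they were 503 with DESeq2, 149 in Ttr-low and 0 in Ttr-high libraries alone (edgeR; 1480 at an unadjusted p under 0.05), and 167 to 356 with each library left out, the lowest without substituted transgene 1. Between the transgenes (5228) they were 2309, 1512, 2751 and 4067 to 5503 under the settings named for the first comparison. Fits on part of the libraries have fewer samples. The split by genotype called 0 with RLE size factors, without a count filter, with the replicate block, with DESeq2 and with each library left out; it was not run under the other settings. Within the Ttr-high set, r fell to 0.833 for Igf2 and 0.692 for Foxj1 without the 2 libraries farthest from the median.

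Signs that changed were of genes not called and of Atp4a, a choroid plexus list member with no test drawn. Xist (-0.36) was 2.91 with the replicate block and -1.46 to 0.474 with each library left out, above 0 without substituted transgene 1 (0.448), ATXN1[82Q] 1 (0.305) and wild type 3 (0.474). Slc6a5 (0.08) was -0.327 with the brainstem mean, -0.179 and -0.213 without the 2 and the 3 libraries rich in brainstem transcripts, and -0.029 to 0.144 with each library left out, below 0 without ATXN1[82Q] 3. With the brainstem mean Calb1 was 0.0545 and Atp4a (0.36) was -0.0429. Col1a1 (0.0186) was -0.025 with the replicate block and -0.0634 to 0.0636 with each library left out, below 0 without substituted transgene 1 (-0.0634), substituted transgene 4 (-0.0144) and wild type 3 (-0.0172). Spag6l (-0.00897) was 0.00402 with log2 Ttr and -0.128 to 0.0636 with each library left out, above 0 without substituted transgene 1 (0.00461), 2 (0.0614), 3 (0.0492) or 5 (0.0317), ATXN1[82Q] 3 (0.0255) or 5 (0.0226), or wild type 1 (0.0636), 2 (0.0118) or 3 (0.0137). The causes were not tested.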
